A study of Mus musculus with 12 samples.

Results

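Genes of chromatin remodellers and histone methyltransferases were examined in liver DNA of an arsenite line and a control line of mice. The members were the listed regions whose nearest transcription start site (TSS) belongs to Ezh1, Smarca2, Smarcal1, Chd5 or Ttc36, which gave 5 regions of the 1711 in all 3 lists. Ttc36 is no chromatin gene by name and was kept because its region lies inside the span of the histone methyltransferase gene Kmt2a. They were selected on their methylation difference, which had to be large enough for the authors to list the region, so the values below describe them and carry no test.

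The 12 samples were livers of C3H/HeN males aged 74 weeks, profiled by reduced-representation bisulfite sequencing, which reads CpG methylation near cut sites of the enzyme MspI. The mice were F2 males, CC denoting the control line and AA the line whose F1 parents met arsenite during gestation. The groups of this series were AAN (normal liver, arsenite line), CCTn and AATn (non-tumor liver of the control and the arsenite line) and AATt (tumor, arsenite line), each of 3 samples. Samples of the remaining control groups, CCN and CCTt, were not analysed here and enter only through the authors' comparisons of 3 samples with 3. Whether each sample of a group stands for another mouse is not labelled. The AATn and AATt samples carry the same numbers (5, 9 and 13) and may come from the same mice, though the labels do not say so. Only 1 inbred strain and males were used, and the F2 mice themselves are not labelled as exposed.

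The values are the authors' group differences in percentage points, without a value per sample, so no replicate error could be given. Read depth is unknown here. Of the listed regions, 107 were from the comparison in normal liver, 57 from that in non-tumor liver and 1547 from that in tumors. No region had a difference under 20 points in size, fewer than 3 CpG sites or fewer than 1 differentially methylated CpG (DMC). How many regions had been tested before listing is not given in the sources used here, so each percentage below is a share of listed regions. Nor do these sources define the sign. A negative value means lower methylation in the arsenite line only if the authors subtracted the control line, and the text therefore gives the sign as deposited. In bulk tissue DNA, a shift in the mix of cell types and a shift of methylation within cells cannot be told apart.

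Chromatin regulators set how tightly DNA is packed. Histone methyltransferases add methyl groups to histone tails, some of which recruit silencing complexes while others mark active genes. Remodellers use ATP to slide, evict or reposition nucleosomes. Several of these genes are mutated or silenced in human tumors, liver cancers included.

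Among the members, Ezh1 encodes a catalytic subunit of Polycomb repressive complex PRC2, which places the repressive methyl mark on histone H3 at silenced genes. Kmt2a encodes a methyltransferase that places an activating methyl mark on histone H3 and is rearranged in human leukemias. Smarca2 encodes BRM, an ATPase of the SWI/SNF complexes, and Chd5 a remodeller of the NuRD type that acts as a tumor suppressor in human neuroblastoma. Smarcal1 encodes a helicase that reanneals DNA at stalled replication forks. Ttc36 encodes a tetratricopeptide repeat protein.

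The starts of the member genes are shown because no member region lay within 1 kb of a listed TSS, so these stretches are where the listed differences did not fall. The sequences are RefSeq windows of 300 bases on build GRCm38.p6, from 250 bases upstream of the TSS to 50 downstream, 5′ to 3′ on the strand of the gene. Capitals mark CCGG, the site cut by MspI, which reads the same on both strands. The windows were chr4:152338401-152338700 (plus strand) for Chd5, which had the largest difference, chr11:101226414-101226713 (minus strand) for Ezh1 and chr9:44881240-44881539 (minus strand) for Kmt2a.
Chd5: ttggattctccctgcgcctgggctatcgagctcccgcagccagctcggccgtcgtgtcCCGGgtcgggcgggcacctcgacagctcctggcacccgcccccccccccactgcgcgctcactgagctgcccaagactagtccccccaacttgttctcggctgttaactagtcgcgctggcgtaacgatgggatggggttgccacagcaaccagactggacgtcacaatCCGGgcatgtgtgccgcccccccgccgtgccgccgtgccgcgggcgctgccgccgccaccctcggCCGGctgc
Ezh1: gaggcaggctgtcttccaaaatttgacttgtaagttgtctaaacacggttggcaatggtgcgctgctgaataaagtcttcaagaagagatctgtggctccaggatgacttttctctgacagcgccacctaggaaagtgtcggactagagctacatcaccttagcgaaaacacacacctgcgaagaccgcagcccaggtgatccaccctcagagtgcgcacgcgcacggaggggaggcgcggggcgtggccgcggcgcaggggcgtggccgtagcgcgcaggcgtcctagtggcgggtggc
Kmt2a: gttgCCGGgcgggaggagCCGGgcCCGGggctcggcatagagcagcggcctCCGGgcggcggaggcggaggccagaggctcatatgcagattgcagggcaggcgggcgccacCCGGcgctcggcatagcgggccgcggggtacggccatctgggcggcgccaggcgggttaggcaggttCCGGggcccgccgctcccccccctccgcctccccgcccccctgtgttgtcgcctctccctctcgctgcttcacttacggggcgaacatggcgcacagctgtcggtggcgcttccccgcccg

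The Chd5 window held 32 CpGs and 3 CCGG sites, and the Kmt2a window 36 CpGs and 6 CCGG sites. The Ezh1 window held 23 CpGs and 0 CCGG sites. Of the other members, the Smarca2 window held 29 CpGs and 4 CCGG sites and the Smarcal1 window 13 and 1. RefSeq windows were matched for 4 of the 5 members, Ttc36 being the other. For comparison, 52.8% of all 32851 windows held a CCGG and the median window had 7 CpGs. The member regions lay 7.96 kb (Ezh1), 9.65 kb (Chd5), 57.98 kb (Smarcal1) and 439.8 kb (Smarca2) from their gene's window. A count of these letters says nothing about whether the window was covered by reads.

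All 5 differences of the members were negative in the authors' deposited table, between -39.1 and -20.5 points, with a median of -20.8 points. Of the 5 regions, 2 came from the normal liver list, 3 from the tumor list and 0 from the non-tumor list. In the normal list 69.2% of regions were negative, and in the tumor list 31.3%, against 40.4% in non-tumor liver. Listing went by size and did not fix the sign, but the members were chosen with earlier results of these data known. The tumor list also held positive regions under remodeller genes that were not members. Nothing is therefore read from the common sign of the members.

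**Figure D1:**
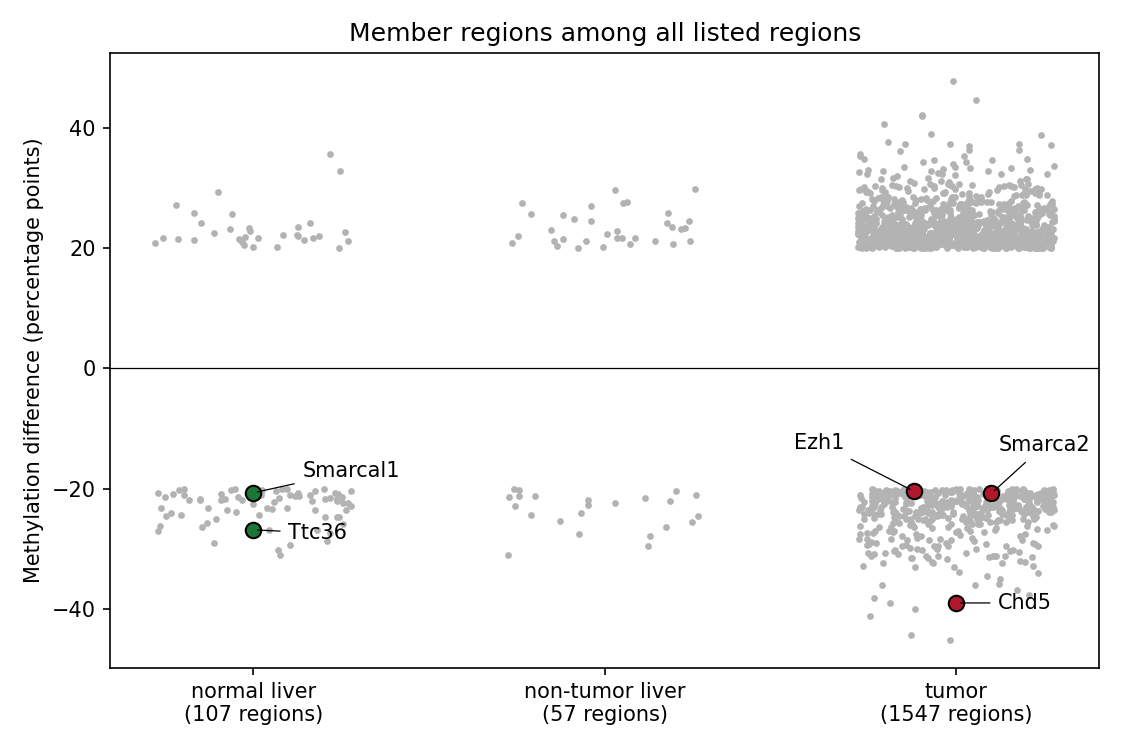
Methylation difference in percentage points (vertical axis) of each listed region (grey points) in the 3 lists, with the 5 member regions as large coloured points and horizontal scatter added only to separate points. Chd5 at -39.1 points stands among the lowest tumor regions, while Ezh1, Smarca2 and Smarcal1 sit within 1 point of the edge at 20 points.

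The Ezh1 region was listed in tumors and lay upstream of the gene (chromosome 11, 101234675 to 101234729, mm10; 8213 bp upstream of the TSS). Its difference in the authors' deposited table was -20.5 points over 4 CpG sites in 55 bp, of which 1 was a DMC. Of the 484 negative tumor regions, 437 were further from 0. By size it ranked 1400th of all 1547 tumor regions. Its 4 CpG sites equalled the median of the list, and 35.6% of tumor regions likewise rested on 1 DMC. The region overlapped no RefSeq gene span and stood between Ezh1, 8212 bp away, and the adrenomedullin co-receptor gene Ramp2, 11605 bp away. Within 1 Mb of it, no other region was listed in any tissue, the nearest being a tumor region at the keratin gene Krt9, 1045 kb away (-20.5 points).

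The region inside Kmt2a was listed in normal liver under Ttc36 (chromosome 9, 44813523 to 44813550). The authors' deposited table gave -26.9 points over 3 CpG sites in 28 bp, of which 2 were DMCs. That placed it 8th by size among the 74 negative regions of normal liver. It was 10573 bp upstream of the Ttc36 TSS. The span of Kmt2a runs over 77.998 kb on the minus strand (44803355 to 44881352), and the region lay 10.2 kb from its downstream end and 67.7 kb from its RefSeq start. It was thus in the downstream part of Kmt2a, although exons and introns were not told apart here. Neither the non-tumor nor the tumor list held a region in the Kmt2a span. The nearest tumor region was 634 kb away, at 4833428L15Rik, and was positive in the authors' deposited table (20.1 points, 6 of 20 CpG sites DMCs).

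The largest difference of any member was at the remodeller gene Chd5. Its tumor region lay inside the gene (chromosome 4, 152348351 to 152348388, 9701 bp downstream of the TSS, in a span of 51.5 kb). The difference in the authors' deposited table was -39.1 points over 4 CpG sites in 38 bp, of which 3 were DMCs. This ranked 5th by size among the 484 negative regions and 10th among all 1547 tumor regions, whose differences ran from -45.2 to 47.9 points. Chd5 was also the only member inside the span of the gene it was listed under. In the same list, 5 other regions stood within 1 Mb. The closest, near the orphan receptor gene Gpr153 and 66.1 kb away, was positive (20.9 points, 4 of 15 CpG sites DMCs) in the authors' deposited table. Of the other 4, 3 were positive (20.2 to 27.0 points) and 1, at Camta1 and 474 kb away, was negative (-24.3 points).

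Smarca2 was the most distant assignment. The tumor region listed under it (chromosome 19, 26164931 to 26165127) stood 440033 bp upstream of the TSS, and 55 of the 1547 tumor regions were farther from theirs. The authors' deposited table gave -20.8 points over 9 CpG sites in 197 bp, of which 3 were DMCs. With 4.57 sites per 100 bp it was the sparsest member, close to the median of 4.07 in the tumor list. No RefSeq gene span covered it. The nearest spans were those of the pseudogene Gm25176, 95204 bp away, and the noncoding RNA gene 1700048O14Rik, whose RefSeq start was 118 kb away and so nearer than that of Smarca2. In all 3 lists no other region lay within 1 Mb, and the nearest was a positive tumor region at Kank1, 1042 kb away (29.97 points).

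The Smarcal1 region was the second member from normal liver (chromosome 1, 72641277 to 72641338). Its difference in the authors' deposited table was -20.7 points over 7 CpG sites in 62 bp, of which 1 was a DMC. It ranked 62nd by size among the 74 negative regions of that list. The position was 58027 bp downstream of the listed TSS, which is 4487 bp beyond the end of the Smarcal1 span. It fell instead inside the span of the noncoding RNA gene Gm39662, 473 bp from its RefSeq start, and 1642 bp from the span of the next gene, Ankar. The nearest tumor region was 819 kb away, near Pinc (20.5 points).

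**Figure D2:**
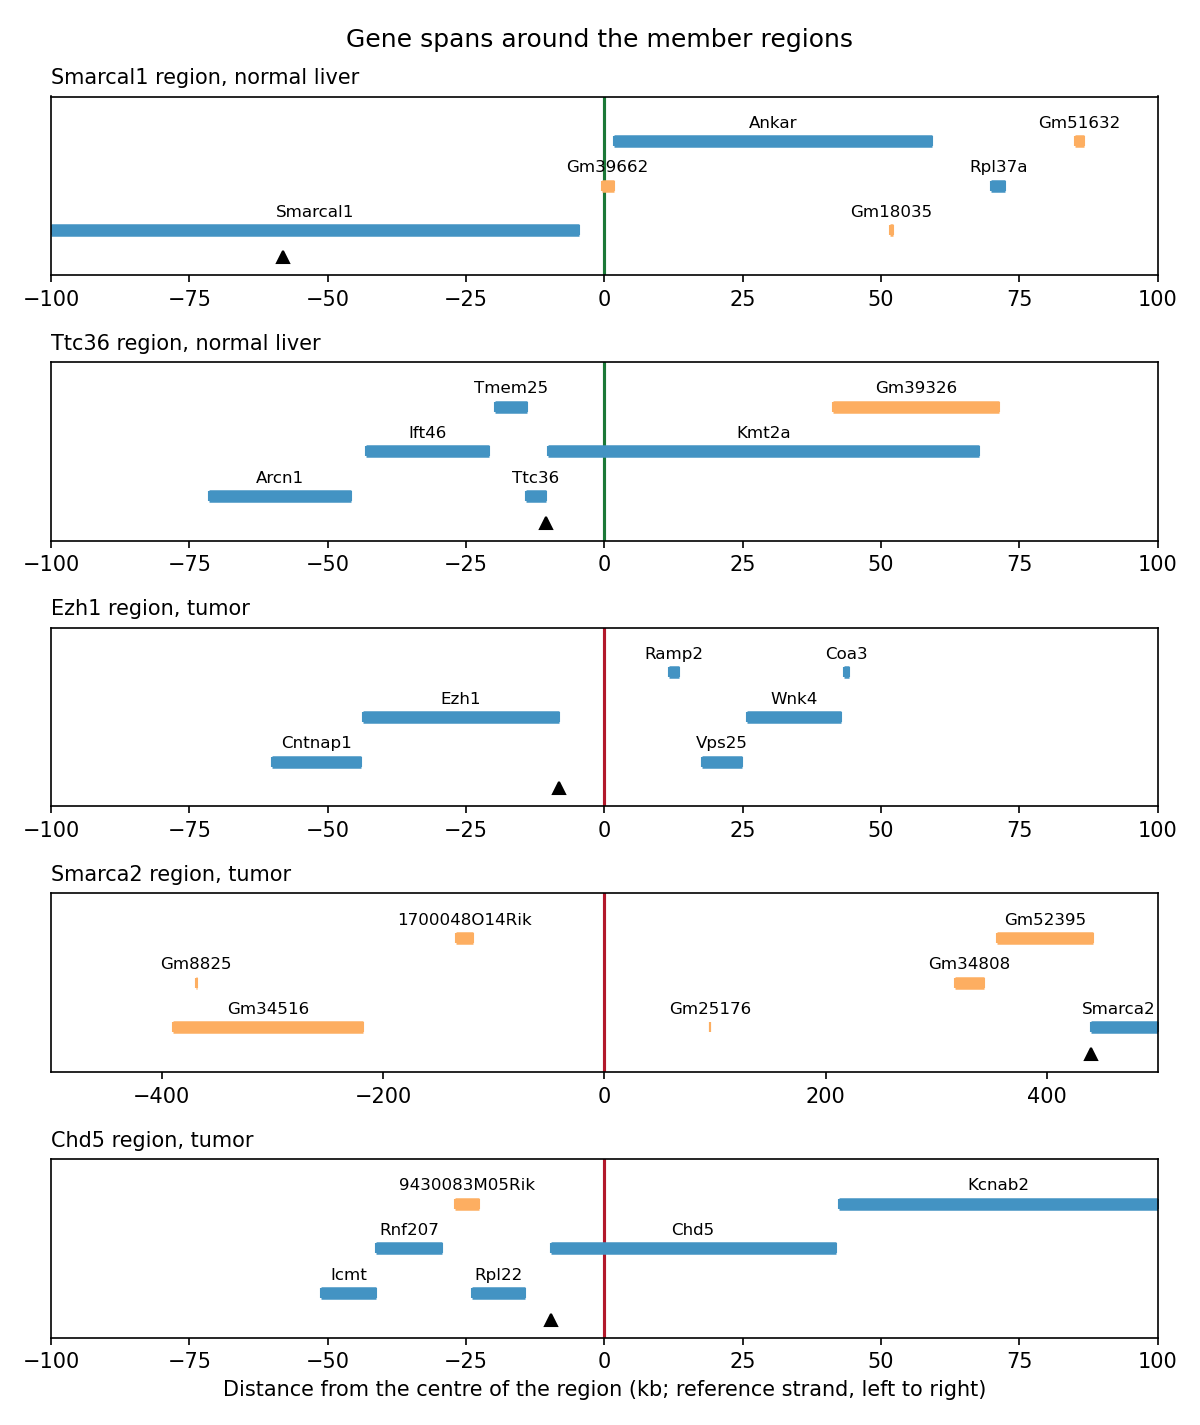
The 6 gene spans nearest to each member region, and that of Smarca2, against distance from the region's centre in kb (100 kb to each side, 500 kb for Smarca2; blue, protein-coding; orange, noncoding or pseudogene; coloured line, the region; triangle, the listed TSS). Kmt2a and Chd5 are the protein-coding spans that the lines cross, and the spans nearest to the Smarca2 region are noncoding or pseudogenes.

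The members differed in place and in support. Within 10 kb of a TSS lay 2 of the 5, Ezh1 and Chd5, as did 24.6% of all tumor regions and 36.4% of all normal regions. Inside any gene span lay 3 of the 5, against 55.1% of the tumor list and 66.4% of the normal list. Single-DMC regions were 2 of the 5, Ezh1 and Smarcal1, against 35.6% of all tumor regions and 66.4% of all normal regions. The share of sites called as DMCs ran from 14.3% at Smarcal1 to 75% at Chd5, with list medians of 33.3% in normal liver and 40% in tumors. In size, 3 of the 5 members were under 21 points, within 1 point of the smallest size listed, as were 20.4% of all tumor regions and 21.5% of all normal regions. Only Chd5 and the Kmt2a region passed 25 points, as did 29.0% of the tumor list and 18.7% of the normal list.

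**Figure D3:**
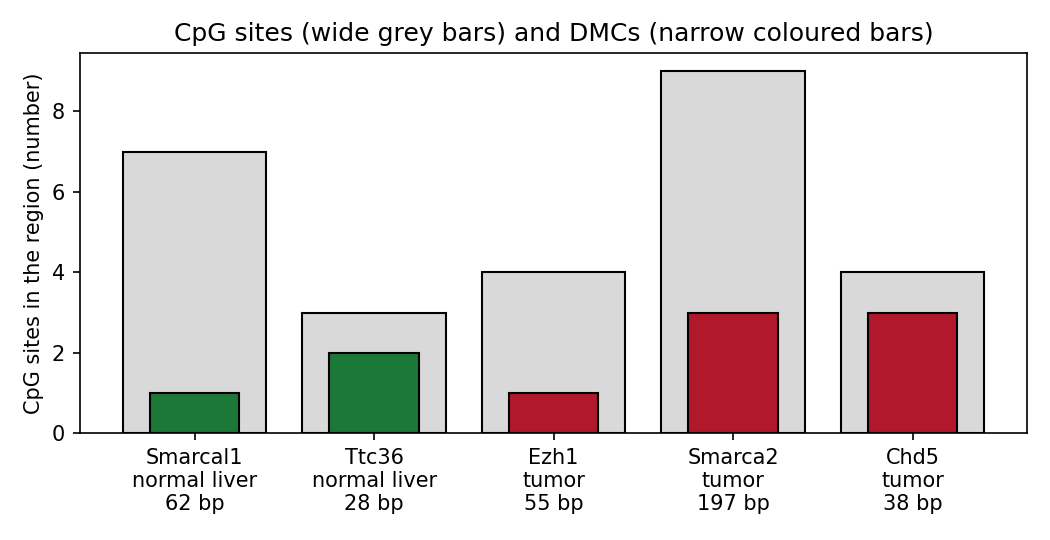
Number of CpG sites (wide grey bars) and of DMCs (narrow coloured bars; green, normal liver; red, tumor) in each member region, with region lengths under the names. At Chd5 3 of 4 sites were DMCs, and at Smarcal1 1 of 7.

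Other genes of chromatin regulation were taken from 9 lists that hold 220 genes in all. By nearest TSS, 12 of the 220 were listed, each with 1 region. That is 5.45% of the lists' genes, beside 5.58% of the 21896 protein-coding genes of the RefSeq table. Over all tissues together, the chromatin genes were thus listed at about the general share. In normal liver these were 3 regions, all negative in the authors' deposited table, against 69.2% negative in the whole list. Their genes were 1.36% of the 220, beside 0.42% of all protein-coding genes, a difference that rests on 3 genes. No excess is read from it, since the members and gene lists were chosen with earlier results of these data known. Besides Smarcal1, a member, the 3 included Prdm9, the methyltransferase that places meiotic recombination sites (-21.7 points, 29406 bp upstream). The other was Mta1, a subunit gene of NuRD (-20.3 points, 7919 bp upstream). The median of the 3 regions was -20.7 points, beside -21.1 points for the whole list. Non-tumor liver had 0 such regions, where 0.228% of all protein-coding genes were nearest to a region. At that share, the 0 is not read as a tissue difference.

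In tumors, 9 chromatin regions were listed by nearest TSS, 6 negative and 3 positive, where 31.3% of the whole list was negative. They made up 4.09% of the 220 genes, where 5.06% of all protein-coding genes were nearest to a tumor region. Their median was -20.8 points, beside 21.4 points for all tumor regions. No listed size is under 20 points, so these medians mainly show which sign was more frequent. Of the 6 negative regions, 3 were members (Ezh1, Smarca2 and Chd5), chosen with earlier results of these data known. The remodeller list (57 genes) had 3 negative and 3 positive regions. Besides Chd5 and Smarca2, the SWI/SNF subunit gene Ss18 was negative in the authors' deposited table (-21.4 points, 139014 bp from the TSS). On the positive side were Bcl11b, a factor gene of lymphocytes whose product joins SWI/SNF (27.4 points, inside the gene), the ISWI ATPase gene Smarca1 (24.4 points, 674813 bp away) and Chd9 (20.8 points, 154090 bp upstream). The lysine methyltransferase list (37 genes) had 2 negative regions, Ezh1 and Smyd2 (-24.2 points, 96149 bp upstream). Of the 23 histone demethylase genes 1 was listed, Kdm4c (-23.3 points, 14400 bp upstream).

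By nearest TSS, the lists of Polycomb partners (31 genes), COMPASS partners (9), arginine methyltransferases (8), acetyltransferases and deacetylases (28) and the DNA methylation machinery (16) had 0 regions in every tissue. Of the 11 NuRD partner genes, Mta1 in normal liver was the 1 listed. Ezh2, Smarca4 and the Dnmt and Tet genes were thus absent from all lists by nearest TSS. Since the general share was 5.06% in tumors, a count of 0 or 1 in lists this short is not read as a result about them. Absence does not show that these genes were unaffected, since smaller differences and uncovered sequence were not listed.

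Assigning regions by the gene span that holds them gave a different set and another balance of signs. In tumors 5 regions lay inside 4 chromatin genes, 1 negative and 4 positive, while 34.6% of the tumor regions inside any span were negative. The share of all genes whose span held a tumor region is not given here, so no excess or lack is read from this count. Chd5 was the negative one, and Bcl11b was again positive. Prdm16, which encodes a factor of brown fat and of hematopoietic stem cells with methyltransferase activity, held 2 positive regions in the authors' deposited table. These stood at 22.6 points (1 of 3 CpG sites a DMC) and 23.4 points (8 of 15), under the names Arhgef16 and 5930403L14Rik. By nearest TSS, negative values thus outnumbered positive ones among the tumor chromatin regions, and by gene span they did not. Because 3 of the 6 negative regions by nearest TSS were members chosen with earlier results known, nothing is read from either balance.

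Scmh1, a Polycomb gene, held a region in both the normal and the tumor list. Both were listed under Slfnl1 and both were positive in the authors' deposited table. In normal liver the region was chromosome 4, 120516839 to 120516898, with 27.2 points over 4 CpG sites, 2 of them DMCs. In tumors it was 120516847 to 120517155, with 23.3 points over 4 CpG sites, 1 of them a DMC. They shared 52 bp. Such recurrence was not particular to Scmh1. Both lists also held a region under Dact2 at 109015 bp from the TSS, though of opposite sign (-24.8 points in normal liver, 29.2 points in tumors). The non-tumor list held a Dact2 region too, at 108978 bp (21.1 points). How many regions recur between the lists is not given here. Kmt2a (negative) and Scmh1 (positive) were the 2 chromatin gene spans with a region in normal liver, where 71.8% of regions inside a span were negative.

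**Figure D4:**
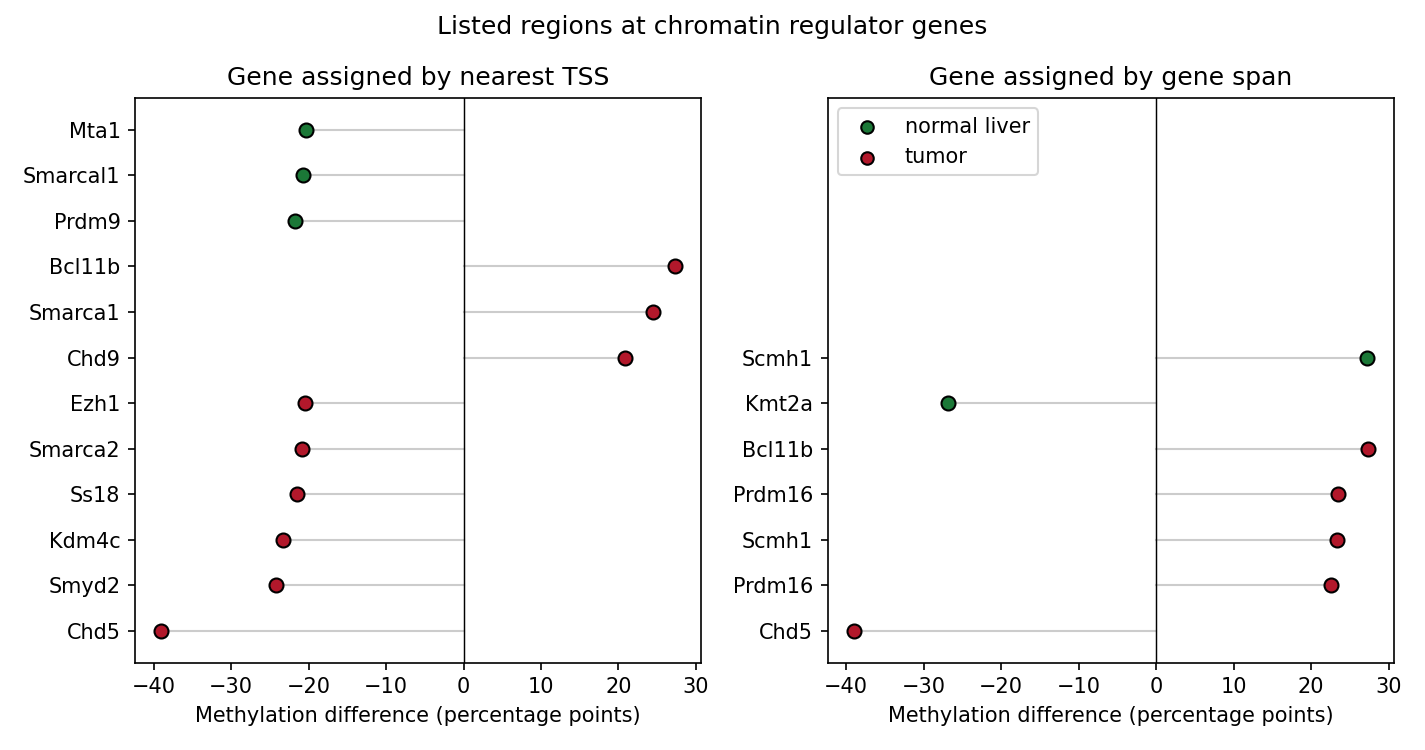
Methylation difference in percentage points of each listed region at a gene of the 9 chromatin lists (green, normal liver; red, tumor), with the gene assigned by nearest TSS (left, 12 regions) or by gene span (right, 7 regions). In tumors, negative values make up 6 of 9 points on the left and 1 of 5 on the right.

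Marker genes of other cell types were listed in tumors too. Of 23 leukocyte marker genes 4 had a tumor region, 3 negative and 1 positive in the authors' deposited table. They ran from -33.0 points under Ptprc (38494 bp from the TSS) to 22.1 points under Cd8a (1131 bp). Of 19 stellate, endothelial and bile duct markers 4 had a tumor region, 2 of each sign. These ran from -21.6 points under Cdh5 (10075 bp upstream of the TSS) to 25.3 points under Kdr (142664 bp from it). The 13 hepatocyte markers had 0. The general share of genes with a tumor region was 5.06%, and 31.3% of tumor regions were negative. In normal and non-tumor liver all 3 marker lists had 0 regions, where the general shares were 0.42% and 0.228% of protein-coding genes. With shares this low, the counts of 0 are not read as a difference from tumors. Whether the cell mix has a part in the tumor values at Ezh1, Smarca2 and Chd5 was not tested.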

How the data were processed

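Liver DNA of 12 samples was profiled by reduced-representation bisulfite sequencing. Trim Galore, Bismark, methylKit and bedtools 2.25.0 on build mm10 are named in the submitters' processing notes. For the region caller, the coverage minimum and the thresholds, the setting is not given in the sources used here. The authors' deposited lists give, per region, a signed score, the methylation difference in percentage points, with other columns that, per the file headers, hold CpG sites, DMCs, length, nearest TSS and distance. In all 1711 regions the length equalled end minus start plus 1, so coordinates were read as 1-based. Depth per sample is unknown.

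Regions were selected by nearest-gene symbol and placed on gene spans of the RefSeq table of GRCm38.p6, the assembly behind mm10, with an overlap of at least 1 bp (Python 3.11.15, pandas 2.3.3). The overlap routine was tested on simulated data. No test was run, since the lists hold no value per sample and the members were chosen because they are listed. The members and gene lists were chosen with earlier results of these data known. All 5 members were named, with every gene of the chromatin lists that had a region, up to 20. The nearest listed regions, the histone and Prdm genes, and Dact2 were named after their values were seen. The marker lists for leukocytes, for stellate, endothelial and bile duct cells and for hepatocytes were counted by nearest gene. Tissue labels were not checked against expression, which was not measured. Alternatives were at least 2 DMCs, at least 25 points, a TSS within 10 or 100 kb, and assignment by gene span.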

Additional observations from a re-analysis of the deposited data

How the results depend on the processing

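No paired analysis was possible because the lists hold no value per sample, and for the same reason no replicate could be left out. Of the 5 member regions, 3 had at least 2 DMCs and 2 reached 25 points. Within 10 kb of the TSS lay 2, and within 100 kb 4. Those kept under each setting were negative by construction, since all 5 members were. In normal liver the 3 chromatin regions, all negative, became 1 (negative) with at least 2 DMCs, 0 with at least 25 points and 1 (negative) within 10 kb, and by gene span 1 of 2 was negative. In tumors the 9 chromatin regions became 5 with at least 2 DMCs (4 negative), 2 with at least 25 points (1 negative), 2 within 10 kb (both negative), 5 within 100 kb (4 negative) and 5 by gene span (1 negative). Requiring the whole region inside the span left the counts of 2 and 5 regions as they were. Stricter settings keep fewer regions by construction, and where all regions were negative those kept must be negative too. Gene spans miss regions outside any gene, 44.9% of the tumor list. All signs turn over if the deposited difference was control minus arsenite.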

Other observations

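Regions nearest to histone genes were looked up after the lists had been seen. The tumor list held 3 regions under H2afy2, the gene of the histone variant macroH2A2, and their signs were mixed in the authors' deposited table. They stood at 26.5 points (1 of 3 CpG sites a DMC), 23.7 points (7 of 20) and -36.1 points (2 of 3), at 65.0, 69.3 and 95.8 kb upstream of the TSS, and all 3 lay inside the span of the collagen gene Col13a1. A tumor region inside the core histone gene Hist1h2bc was positive (33.0 points, 2 of 3 CpG sites DMCs). In normal liver a region under H2afy3 was positive (22.2 points) and lay inside the span of the noncoding RNA gene Pvt1.

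The Prdm family, of which Prdm9 and Prdm16 were in the methyltransferase list, had further tumor regions that were also looked up after the lists had been seen. Prdm10 (29.9 points, 1113 bp downstream of the TSS, 4 of 7 CpG sites DMCs) and Prdm12 (23.9 points, inside the gene) were positive in the authors' deposited table. Prdm13 had 1 region of each sign, 27.4 points at 263947 bp from the TSS and -29.9 points at 4627 bp upstream, each with 3 DMCs.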
